A study of Mus musculus with 386 samples.

Results

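The liver transcriptome was measured on 101 arrays and was set against the rest of the series, 85 arrays of brain, 102 of kidney and 98 of lung, the tissue being read from the source label. The animals were 23-day-old, untreated mice of 3 inbred strains (CAST, PWK and WSB) and of the 6 reciprocal F1 crosses between them, written here with the dam first. They were bred at the University of North Carolina from stock a few generations away from Jackson Laboratory founders. RNA came from powdered whole tissue and was hybridised to Affymetrix Mouse Gene 1.1 ST arrays, so every value is the mean signal of all cells in that piece of tissue.

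Liver arrays came from 101 animals (49 females and 52 males), all of which also gave at least 1 of the other tissues, and 67 of the 111 animals of the series gave all 4. Each cross had 9 to 13 liver arrays and 6 to 13 arrays in each tissue. The measure used throughout is the liver difference, the mean log2 signal in liver minus the mean of brain, kidney and lung, with the 9 crosses and the 3 tissues weighted equally. A gene was called higher or lower in liver where limma's adjusted p was under 0.05 and the liver difference was at least 1 log2 unit. Nothing outside these 3 tissues was available for comparison, so a gene called higher in liver may be as abundant in an organ not analysed here.

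Most of the liver's mass is hepatocytes, which secrete the majority of plasma proteins, turn ammonia into urea, make bile acids from cholesterol, release glucose and ketone bodies for other organs, and oxidise and conjugate drugs and hormones. Hepatocytes are laid out along a line from the portal tract, where blood enters the lobule, to the central vein, and enzymes differ along that line. Between plates of hepatocytes run sinusoids, capillaries lined by a fenestrated endothelium with little basement membrane, with resident macrophages (Kupffer cells) inside and vitamin A-storing stellate cells beneath.

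Marker genes went with the labels, as a description. All 11 hepatocyte markers, among them Ugt2b1 (a glucuronosyltransferase), Akr1c6 (a hydroxysteroid dehydrogenase) and Gulo (the last enzyme of vitamin C synthesis), were called higher in liver in each of the 9 crosses. Ugt2b1, Akr1c6 and Gulo are also among the 20 genes of largest liver difference given below, so they are no separate check of the labels. The per-array mean of the neuron list ran from 5.49 to 6.30 in liver and from 12.21 to 12.45 in brain, that of the proximal tubule list had a median of 5.75 in liver and 12.26 to 12.57 in kidney, and that of the alveolar list reached 6.40 in liver and 12.05 to 12.38 in lung. There were 16 arrays whose mean of another organ's marker list lay at least 2 log2 units above the median of their own tissue. Of these, 3 were liver arrays: WSBxWSB replicate 8 (proximal tubule mean 9.21), CASTxCAST replicate 5 (exocrine pancreas mean 11.72, against a liver median of 5.09) and WSBxCAST replicate 10 (exocrine pancreas mean 8.6). The kidney held 3, the lung 10 and the brain 0. Among them were 2 kidney arrays of PWKxPWK (9.55 and 10.01, against a kidney median of 7.33) and 2 lung arrays, of CASTxCAST and PWKxPWK (10.15 and 10.41, against 7.79), that stood high in the plasma protein list. On a liver array labelled male (PWKxWSB replicate 8) Xist was 10.7, and on a brain array labelled female (PWKxCAST replicate 9) it was 3.98. Leaving out the 16 arrays moved no count of calls given below by over 1.5 times. The lowest correlation between any pair of liver arrays (0.945) was above the highest between a liver array and an array of another tissue (0.924).

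Of 18820 genes, 1745 (9.27%) were called higher in liver and 3305 (17.6%) lower. Over all genes the median liver difference was 0.067, and 18007 genes passed the adjusted p alone, so the size threshold decided most calls. Centring each array on its own median moved the median difference to 0.516, and the calls then came to 3260 higher and 2126 lower. Higher genes made up 34.6% of the calls as deposited, 60.5% after that centring and 41.1% after quantile normalization, so the balance between the directions depended on scaling. The share was 50.8% when genes of low liver signal were left out, a filter that by its design drops genes low in liver. In all 9 crosses taken singly, 1257 genes (6.68%) were called higher and 2577 (13.7%) lower. Against each of the other tissues taken singly, 739 (3.93%) were called higher and 800 (4.25%) lower. The genes that met both conditions numbered 665 on the high side and 778 on the low side.

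Large differences went mainly one way on this measure, which averages the other tissues. A gene high in only 1 of them shows a reduced deficit. The neuron list, at median levels of 12.6 in brain and 5.42 in liver, had a median difference of -2.5. Counts of large differences are therefore not comparable between the directions. A liver difference of 3 or more was found for 500 genes, and of -3 or less for 262. At 5 or more units the counts were 204 on the high side and 2 on the low side, Car4 and Slc1a1. All 262 genes with the large deficits were called lower in every cross, and 490 of the 500 with the large excesses were called higher in every cross. Every liver array lay above every array of the other tissues for 552 of the called genes (2.93% of all genes) and below every one for 512 (2.72%). Leaving out the 16 arrays gave 561 (2.98%) and 525 (2.79%). In bulk tissue, a lower value cannot be told apart as fewer cells of a type or as less RNA per cell, and the same holds for a higher one.

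**Figure D1:**
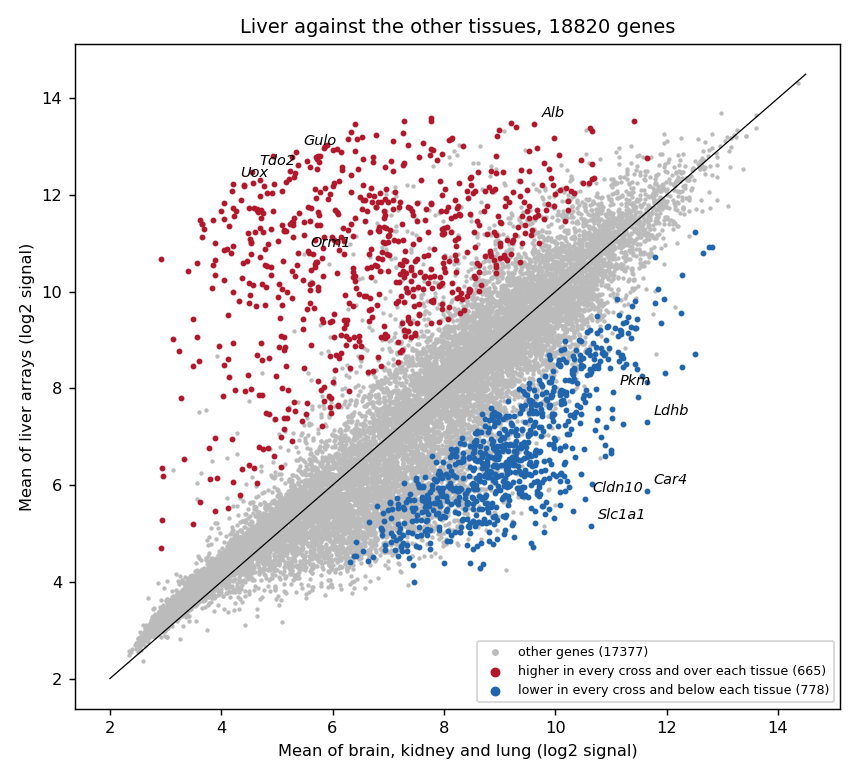
Mean log2 signal of each of the 18820 genes in liver (vertical axis) against the mean of brain, kidney and lung (horizontal axis), with the 665 genes called higher in red and the 778 called lower in blue in every cross and against every tissue, and the remaining genes in grey. The red points reach a liver difference of 8.02 (Uox), whereas the blue points stop at -5.77 (Car4).

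The 20 genes with the largest liver differences, taken from those called higher in every cross and against every tissue, were enzymes, transporters and secreted proteins of the hepatocyte. Uox, the peroxisomal urate oxidase that mice have kept and apes have lost, led them. Its lowest, median and highest liver values were 11.84, 12.23 and 12.52, while brain arrays lay between 3.46 and 5.07, kidney between 3.30 and 7.26 and lung between 3.36 and 8.15. No array of another tissue came within 3 units of the lowest liver array. The liver difference of Uox was 8.02 ± 0.06 (SE), and by cross it ran only from 7.79 to 8.18. Tdo2, which opens the tryptophan ring in the first step of its breakdown, had a liver mean of 12.48 ± 0.15 (SD, n = 101) and a difference of 7.93. Cyp7a1, the rate-limiting enzyme of bile acid synthesis, was more variable among livers, with 9.77 as the lowest, 11.44 as the median and 12.29 as the highest value. No other array exceeded 8.30, and the difference was 7.77 ± 0.06.

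The same 20 included 6 of the cytochrome P450 family (Cyp2c67, Cyp2c50, Cyp7a1, Cyp2c39, Cyp2a12 and Cyp2c29), 3 glucuronosyltransferases that make steroids and drugs soluble (Ugt2b36, Ugt2b1 and Ugt2b35) and the sulfotransferase Sult3a1. They also held the bile salt export pump Abcb11 (7.80), the uptake transporter Slco1b2 (7.68), the steroid dehydrogenases Hsd17b6 (7.76) and Akr1c6 (7.61), and Gulo (7.55). Coagulation factor F9 (7.74), complement C9 (7.56) and C-reactive protein Crp (7.69) were the secreted proteins among them. The largest adjusted p of the 20 by limma was 1.88e-223, that of Ugt2b1. The 20 were chosen by calls of the same fit, so this p describes them and supports nothing further. For Ugt2b1 the liver values ran from 12.27 to 13.11 with a median of 12.85, and the others from 3.30 to 10.37. Without the 16 arrays that stood apart, the highest of the other tissues was 8.90 for Ugt2b1, 6.78 for Uox in place of 8.15, 6.23 for Cyp2c67 in place of 9.17 and 8.22 for Gulo in place of 10.21. Probes for near-identical members of the Cyp2c, Cyp4a, Ugt2b, Mup and Orm families can catch each other's transcripts, so single members of these families are uncertain.

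**Figure D2:**
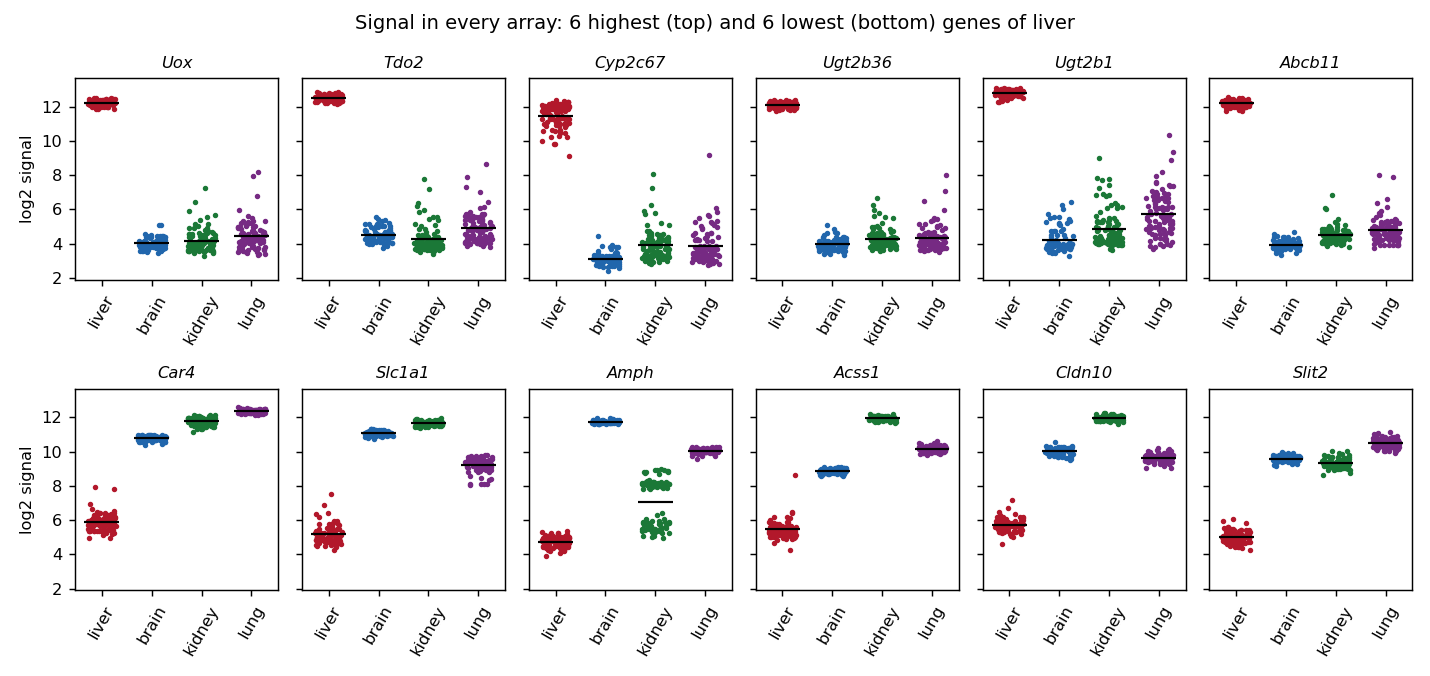
Log2 signal on every array, by tissue, of the 6 genes with the largest liver differences (Uox, Tdo2, Cyp2c67, Ugt2b36, Ugt2b1 and Abcb11) and the 6 with the lowest (Car4, Slc1a1, Amph, Acss1, Cldn10 and Slit2); each point is an array and each line a tissue mean. All 101 liver points of Uox lie at or above 11.84, and the liver point of Acss1 at 8.65 is the only one of that gene to reach the lowest array of another tissue (8.56).

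The promoters of the liver-high genes are shown because the HNF1 and HNF4 strings, those of 2 hepatocyte factors, were in a higher share of them than of promoters at large, a description made without a test. RefSeq windows from 250 bases before to 50 after the start were matched by Entrez gene identifier and were searched on both strands. They were found for 511 of the 665 genes called higher throughout (628 windows) and for 605 of the 778 called lower throughout (826 windows). In all, 14739 genes had a window (18141 windows). The HNF1 string GTTAATNAT was in 3.98% of the high windows, 0.24% of the low and 0.64% of all. The HNF4 string CAAAGTCCA was in 2.23%, 0.36% and 0.45%, in the same order. For a FOXA string (TGTTTAC) the shares were 4.14%, 1.69% and 2.95%, for the PAR bZIP string TTATGTAA 1.91%, 0.61% and 0.80%, for TATAAA 17.52%, 8.23% and 11.6%, and for the C/EBP palindrome TTGCGCAA 0%, 0.36% and 0.24%. Matches to different strings were counted independently and may overlap, and family members with like promoters were each counted. The FOXA, PAR bZIP and TATAAA strings were also in a higher share of the liver-high windows than of all windows. Base composition was not compared between the sets. A match is a string of letters in the window, not a bound site.

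The HNF1 string was found for 25 of the genes called higher throughout, the HNF4 string for 12 and both for 0. Of the 20 genes named above, 18 had a window and 2 a match, Cyp2c67 and Slco1b2. The windows of these and of 5 others, which were picked after their values were seen, are printed 5′ to 3′ on the gene's strand with the match in capitals (GRCm38.p6, RefSeq). C4bp encodes a plasma inhibitor of complement, Gckr the protein that holds glucokinase in the hepatocyte nucleus, Fga the fibrinogen alpha chain and Cyp3a11 a drug-oxidising P450. AI182371 is a gene known by a clone name.
Cyp2c67, chr19:39648993-39649292, minus strand, HNF4 string 125 bases before the start: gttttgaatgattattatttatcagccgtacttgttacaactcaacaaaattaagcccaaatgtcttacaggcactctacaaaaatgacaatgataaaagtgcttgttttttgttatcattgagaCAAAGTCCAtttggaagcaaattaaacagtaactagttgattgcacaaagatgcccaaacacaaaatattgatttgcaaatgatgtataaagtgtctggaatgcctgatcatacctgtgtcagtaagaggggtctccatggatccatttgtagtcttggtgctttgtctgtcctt
Slco1b2, chr6:141629268-141629567, plus strand, HNF1 string 66 bases before the start: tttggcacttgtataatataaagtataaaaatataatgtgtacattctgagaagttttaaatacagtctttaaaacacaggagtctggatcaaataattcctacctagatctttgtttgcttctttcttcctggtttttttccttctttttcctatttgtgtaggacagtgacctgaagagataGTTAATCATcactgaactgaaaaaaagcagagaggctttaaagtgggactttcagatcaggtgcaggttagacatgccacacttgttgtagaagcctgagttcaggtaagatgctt
C4bp, chr1:130661569-130661868, minus strand, HNF1 string 64 bases before the start: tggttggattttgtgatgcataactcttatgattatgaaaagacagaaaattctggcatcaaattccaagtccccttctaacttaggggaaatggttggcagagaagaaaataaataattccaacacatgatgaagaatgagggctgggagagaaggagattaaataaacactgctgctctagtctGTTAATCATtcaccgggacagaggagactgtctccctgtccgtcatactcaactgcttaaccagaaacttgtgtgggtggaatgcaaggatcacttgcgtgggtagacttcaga
AI182371, chr2:35100636-35100935, minus strand, HNF1 strings 53 and 49 bases before the start that overlap: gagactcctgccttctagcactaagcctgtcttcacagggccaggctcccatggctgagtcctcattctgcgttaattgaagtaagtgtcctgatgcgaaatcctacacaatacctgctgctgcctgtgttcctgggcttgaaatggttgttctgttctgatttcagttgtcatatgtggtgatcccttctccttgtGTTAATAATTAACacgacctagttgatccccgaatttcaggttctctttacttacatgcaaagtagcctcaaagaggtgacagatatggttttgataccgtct
Gckr, chr5:31297313-31297612, plus strand, HNF1 string 59 bases before the start: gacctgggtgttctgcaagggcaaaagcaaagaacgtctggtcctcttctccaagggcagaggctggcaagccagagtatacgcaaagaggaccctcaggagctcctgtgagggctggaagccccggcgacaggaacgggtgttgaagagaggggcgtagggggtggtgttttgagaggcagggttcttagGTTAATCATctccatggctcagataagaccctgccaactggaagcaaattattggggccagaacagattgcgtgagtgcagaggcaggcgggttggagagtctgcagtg
Fga, chr3:83025903-83026202, plus strand, HNF1 string 46 bases before the start: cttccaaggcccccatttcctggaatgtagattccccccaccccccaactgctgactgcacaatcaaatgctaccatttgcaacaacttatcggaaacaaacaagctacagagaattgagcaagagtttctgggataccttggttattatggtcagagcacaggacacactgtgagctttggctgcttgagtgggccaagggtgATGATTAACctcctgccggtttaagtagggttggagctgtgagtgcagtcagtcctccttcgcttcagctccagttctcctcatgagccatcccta
Cyp3a11, chr5:145879805-145880104, minus strand, HNF4 string 109 bases before the start: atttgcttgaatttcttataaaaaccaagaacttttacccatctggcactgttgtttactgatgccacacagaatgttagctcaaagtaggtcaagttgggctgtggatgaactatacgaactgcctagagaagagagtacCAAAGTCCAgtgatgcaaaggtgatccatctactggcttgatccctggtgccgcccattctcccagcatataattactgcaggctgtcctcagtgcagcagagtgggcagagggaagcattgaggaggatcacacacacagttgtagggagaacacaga
In all 5 printed HNF1 windows the string lies within 100 bases before the start. Over all liver-high windows 15 of 26 HNF1 matches (57.7%) and 7 of 14 HNF4 matches (50%) lay there, against 43 of 94 (45.7%) and 21 of 67 (31.3%) in the windows of the remaining genes.

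Secreted plasma proteins were higher in liver almost without exception. All 22 measured carriers and inhibitors were called higher, 21 of them against each tissue, with a median difference of 5.29. Azgp1, a zinc-binding glycoprotein, had 12.26, 12.62 and 12.95 as its lowest, median and highest liver values, no other array above 9.84, and a difference of 7.23 ± 0.08. Ambp (7.17), the precursor of bikunin, Apoh (7.13), a phospholipid-binding protein, Hrg (6.92), a histidine-rich glycoprotein, and Mug1 (6.89), a protease inhibitor, followed. Serpina6, the corticosteroid-binding globulin, was the member not called against each tissue: it was 4.69 above the mean of the others but 0.03 below kidney. Albumin itself had a smaller difference (3.85 ± 0.16). Its liver values lay within 13.30 to 13.67, whereas the other tissues ranged from 4.03 to 13.28 with means of 7.97 in brain, 9.58 in kidney and 11.31 in lung. Plasma protein markers stood high on 2 kidney and 2 lung arrays, as given above; their part in the level of Alb was not tested.

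Of the 20 coagulation and fibrinolysis genes measured, 19 were called higher (median 5.37), all 19 against each tissue. F9 was the highest (7.74), followed by F12 (7.12), prothrombin F2 (6.88), the fibrinogen gamma chain Fgg (6.87) and antithrombin Serpinc1 (6.74). F9 had liver values of 11.06, 11.41 and 11.78 (lowest, median, highest) and no other array above 7.61. Pros1, the protein S gene, was the member not called (0.76). All 16 measured complement and lectin genes were called higher (median 5.53), with C9 (7.56), C4bp (7.28), C8b (7.26) and Cfi (7.05) at the head. C9, the pore-forming last component of the lytic complex, varied more among livers than most of these, from 9.02 to 12.50 around a median of 11.90. Apolipoproteins and lipoprotein handling genes followed the same direction, with 14 of 15 called higher (median 5.38). Apof had the largest difference (7.31), then Apoc4 (6.41), Apoc2 (6.21), Apoa5 (6.17) and Apob (6.06). Apoe, which brain astrocytes also make, was not called at 0.71. Pros1, Apoe and Serpina6 are named here after their values were seen.

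Nitrogen metabolism genes were all called higher than the mean of the others, but not all against each tissue. All 7 urea cycle genes were called higher (median 5.28), 5 of them against each tissue. Cps1, which fixes ammonia in the first step, had liver values of 13.34, 13.46 and 13.61 and a difference of 7.07 ± 0.12, although single arrays of other tissues reached 11.92. Otc was higher by 7.20, Arg1 by 6.99 and Nags, which makes the activator of Cps1, by 5.28. Slc25a13, the citrin carrier, was higher by 3.29 overall but by 0.94 over kidney. All 27 measured genes of amino acid and one-carbon breakdown were also called higher in every cross (median 4.83), 20 of them against each tissue. Agxt, the glyoxylate-detoxifying aminotransferase, had 11.18, 11.71 and 12.27 in liver and at most 7.5 elsewhere (7.12 ± 0.05). Hal, the histidine-degrading lyase, reached 7.08, Tat, the tyrosine aminotransferase, 6.98 and Dpys, of pyrimidine breakdown, 6.48.

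Glucose production genes were higher than the mean of the others but were often shared with kidney, the other gluconeogenic organ. All 14 were called higher (median 3.89), 13 in every cross, but only 6 against each tissue. Gckr led (6.16), followed by the liver glycogen synthase Gys2 (5.70) and the glucose transporter Slc2a2 (4.88, and 1.12 over kidney). G6pc, the catalytic subunit of glucose-6-phosphatase, had liver values of 11.99, 13 and 13.24 and a difference of 4.74 ± 0.07. Its kidney mean was 12.83, so the difference from kidney was 0.09. Fatty acid oxidation and ketone synthesis showed the same sharing: 16 of 20 genes were called higher (median 1.66), but only 1 against each tissue. That gene was Fabp1, the liver fatty acid-binding protein (6.35 ± 0.06). Acsm1, Slc27a2 and Ehhadh differed by 3.93, 3.47 and 3.08 overall and by 0.18, -0.21 and -0.32 from kidney. Ppara, the receptor that turns on these genes in fasting, was higher by 2.93 overall and by 0.86 over kidney.

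Bile acid and detoxification genes were liver-high with few exceptions. All 24 bile acid genes were called higher (median 4.95), 20 of them against each tissue. Beyond Abcb11, Cyp7a1 and Slco1b2, these included the uptake carrier Slco1a1 (7.31 ± 0.04) and the bile acid ligase Slc27a5 (7.15 ± 0.06). Slco1a1 had liver values from 8.92 to 12.20 around a median of 11.67, and no other array passed 6.18. Among P450 enzymes of families 1 to 4, 27 of 31 were called higher (median 5.17) and 1 lower, Cyp2s1, at -2.63. Cyp2s1, an enzyme of epithelia, had liver values of 5.73, 6.52 and 7.42 and means of 7.43 in brain, 9.18 in kidney and 10.93 in lung. Of 16 glucuronosyl- and sulfotransferases, 15 were called higher (median 4.35), 12 against each tissue. Outside the 20 leading genes, Sult2a8 (7.13) and Ugt2a3 (6.80) were the highest.

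Iron-hormone genes were also liver-high: 10 of 12 were called higher (median 3.08), all 10 in every cross and against each tissue. Hepcidin (Hamp), the hormone that blocks iron export, had liver values of 11.11, 12.07 and 12.59 and a difference of 7.23 ± 0.08. Tmprss6, the protease that restrains hepcidin, was higher by 6.45, the transferrin receptor Tfr2 by 6.41, the co-receptor Hjv by 5.06 and Hamp2 by 3.73. Bmp6, the ligand that induces hepcidin and that endothelial cells supply, was called lower (-1.52), with liver values of 7.90 to 9.18 and means of 8.74 in brain, 10.02 in kidney and 11.38 in lung. Of the vitamin A, vitamin C and selenium genes 13 of 14 were called higher (median 3.71), led by Gulo, the retinol dehydrogenase Rdh7 (7.23) and the regucalcin gene Rgn (6.83). Dio1, the thyroid hormone deiodinase, was higher by 4.53 overall but by 0.03 over kidney.

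Hepatocyte transcription factors were called higher for 18 of 21 members (median 3.55), all 18 in every cross. The forkhead factor Foxa3 had liver values of 10.50, 11.25 and 11.83, at most 7.34 elsewhere and a difference of 6.72 ± 0.04. Creb3l3 (5.94), Nr5a2 (5.30), Onecut1 (4.90) and the bile acid-responsive Nr0b2 (4.87) followed. Hnf4a was higher by 4.55 than the mean of the others, but its kidney mean of 12.55 lay 0.10 from the liver mean of 12.65. Genes of both ends of the lobule were liver-high. On the central-vein side 10 of 15 were called higher (median 1.82), with Cyp1a2 (7.16), Lect2 (7.05) and Cyp2e1 (4.35) among them. On the portal side 12 of 13 were called higher (median 4.97), with Hal, Cps1, Arg1, Hsd17b13 (6.15) and Uroc1 (5.65) in front.

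At 23 days, genes of the fetal liver pointed both ways. Of 11 measured, 2 were called higher and 6 lower (median -1.01); 3 were called lower under quantile normalization and under centring alike. Igf2bp3, a fetal RNA-binding protein, had liver values of 8.23, 9.04 and 9.83, all above the highest other array (6.36), and a difference of 3.94 ± 0.02. Afp, the fetal counterpart of albumin, was 6.36 ± 0.53 (SD, n = 101), with a range of 4.89 to 7.66 that overlapped the other tissues (4 to 5.62) and a difference of 1.74 ± 0.03. The imprinted genes Peg3 (-2.06), Plagl1 (-1.94), Dlk1 (-1.37) and Cdkn1c (-1.16) and the oncofetal proteoglycan Gpc3 (-1.59) were called lower. Dlk1 differed by -0.96 under quantile normalization and -0.93 under centring and was then not called. Cdkn1c was not called under quantile normalization (-0.87), under centring (-0.71) or in the inbred strains alone (-0.97).

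**Figure D3:**
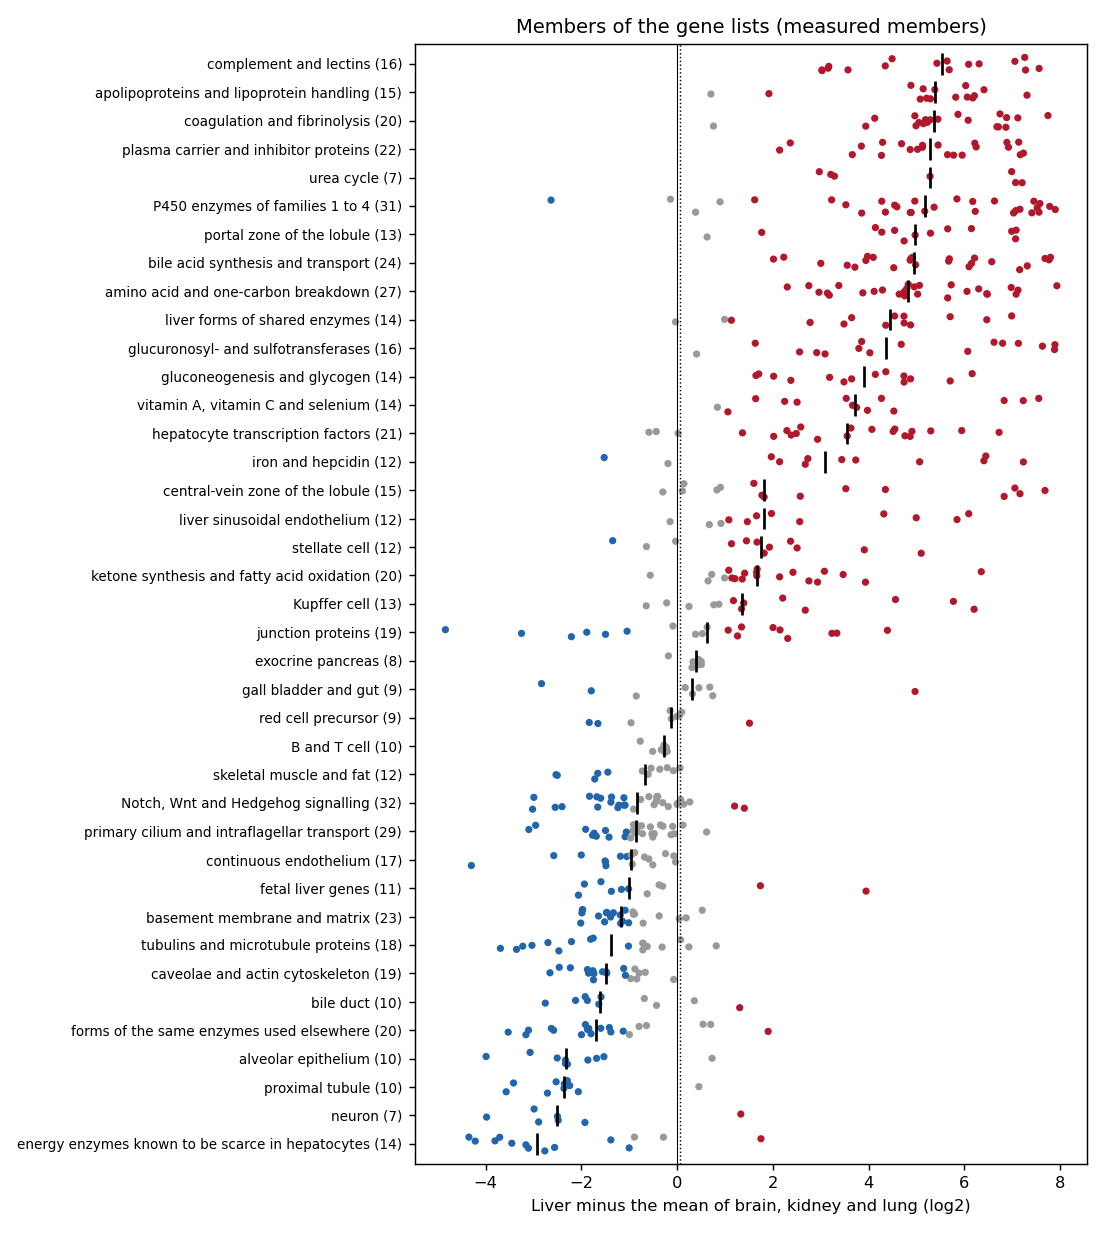
Liver difference (horizontal axis, log2 units) of every measured member of each gene list (one line per list); red points were called higher, blue lower and grey neither, the black tick is the list's median and the dotted line the median of all genes (0.067). The secreted protein, nitrogen and bile acid lists lie to the right (medians 4.83 to 5.53). The energy enzyme list, made of enzymes known to be scarce in hepatocytes, has the lowest median (-2.93).

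On the liver-low side, the 15 genes with the lowest differences were taken from those called lower in every cross and against each tissue. Each cross was tested against the mean of the 3 tissues, and each tissue over the mean of the 9 crosses. Car4, the membrane-anchored carbonic anhydrase of capillaries and tubules, had liver values of 4.95, 5.85 and 7.90. Brain arrays lay between 10.41 and 10.98, kidney between 11.17 and 12.16 and lung between 12.13 and 12.59, so no array overlapped. The difference of Car4 was -5.77 ± 0.03. Slc1a1, a glutamate transporter of neurons and tubules, had liver values of 4.26, 5.04 and 7.53, under the lowest lung array (8.06), and a difference of -5.48. A further probe set of Slc1a1 gave -2.91. Amph, an endocytic protein of nerve terminals, had 3.92, 4.73 and 5.33 in liver and kidney values of 4.93, 7.90 and 8.96, and the difference was -4.89. The kidney mean of Amph was 5.33 to 5.79 in the crosses without a CAST parent and 7.99 to 8.85 in those with one.

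Acss1, the mitochondrial enzyme that turns acetate into acetyl-CoA, had liver values of 4.25, 5.41 and 8.65 and a difference of -4.85. The liver array at 8.65 reached the lowest brain array (8.56), and without the arrays that stood apart the highest liver value of Acss1 was 6.44. The tight junction protein Cldn10 (-4.84), the guidance cue Slit2 (-4.77) and the muscle and heart fatty acid-binding protein Fabp3 (-4.77) came next. Slit2 had 4.24, 5 and 6.07 in liver against 8.62 to 11.12 elsewhere. Osbpl6 (-4.64), the enkephalin precursor Penk (-4.64), the semaphorin Sema7a (-4.50), Chn1 (-4.42), Mboat2 (-4.40), Egfl6 (-4.36), Plxdc2 (-4.35) and the lung carbonyl reductase Cbr2 (-4.35) completed the 15. Their largest adjusted p by limma was 5.33e-270, that of Fabp3. These 15 were also chosen by calls of the same fit, so this p only describes them. The tissues were far apart for Cbr2, with means of 7.03 in brain, 9.27 in kidney and 13.35 in lung. Its highest liver value (6.42) was above the lowest brain value (5.75).

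Many metabolic steps are run by different enzyme forms in liver and elsewhere, and most liver forms were called higher here and most of the forms used elsewhere lower. Of 14 liver forms, 12 were called higher (median 4.45). They were Arg1 (6.99), the methionine adenosyltransferase Mat1a (6.47), Gys2 (5.70), Slc2a2 (4.88), G6pc (4.74), the pyruvate kinase Pklr (4.74), Aldh1b1 (4.54), the fructose bisphosphatase Fbp1 (4.36), the glycogen phosphorylase Pygl (3.64), Ppp1r3b (3.48), the alcohol dehydrogenase Adh1 (2.78) and Acacb (1.13). Cpt1a (0.99) and the phosphofructokinase Pfkl (-0.03) were not called. Of 20 forms of the same enzymes used elsewhere, 14 were called lower (median -1.70; 11 under centring), 8 of them against each tissue, and 1 was called higher, the ubiquitous Adh5 (1.90).

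The lower forms covered the glycolytic entry and exit steps. Hexokinase Hk1 had liver values of 6.68, 7.26 and 8, all below the lowest other array (9.43), and a difference of -3.16 ± 0.02. Phosphofructokinase Pfkp had 6.23, 6.74 and 7.73 against at least 9.28 elsewhere (-3.53 ± 0.02), and pyruvate kinase Pkm had 7.22, 7.90 and 8.57 against at least 10.15 (-3.10 ± 0.02). The glucose transporter Slc2a3 (-2.58), the phosphorylases Pygm (-2.63) and Pygb (-1.87), the glycogen synthase Gys1 (-1.92), Cpt1c (-2), the aldolase Aldoa (-1.84), G6pc3 (-1.80), Pfkm (-1.59), Fbp2 (-1.42), Hk2 (-1.38) and Ppp1r3d (-1.13) were also called lower. Under centring, Fbp2 (-0.97), Hk2 (-0.94) and Ppp1r3d (-0.68) were not called, and Ppp1r3d was not called under quantile normalization either (-0.70).

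A list of energy enzymes was made of those known to be scarce in hepatocytes, so its direction was set by that choice. Of its 14 members, 11 were called lower (median -2.93, and 9 lower under centring) and 1 higher. Hk1, Hk2 and Pkm belong to both this list and the one before. Ldhb, the lactate dehydrogenase subunit of lactate-using tissues, had liver values of 6.44, 7.29 and 8.95, below the lowest other array at 9.76, and a difference of -4.35 ± 0.02. The creatine kinases Ckmt1 (-4.22) and Ckb (-3.80) were lower, whereas Gamt, which completes creatine synthesis, was higher by 1.75. Oxct1, the enzyme that lets tissues burn ketone bodies, had 6.41, 7.17 and 8.37 in liver and at least 9.12 elsewhere (-3.70 ± 0.02). Bcat1, which transaminates branched-chain amino acids, was lower by 3.45 on the log2 scale.

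**Figure D4:**
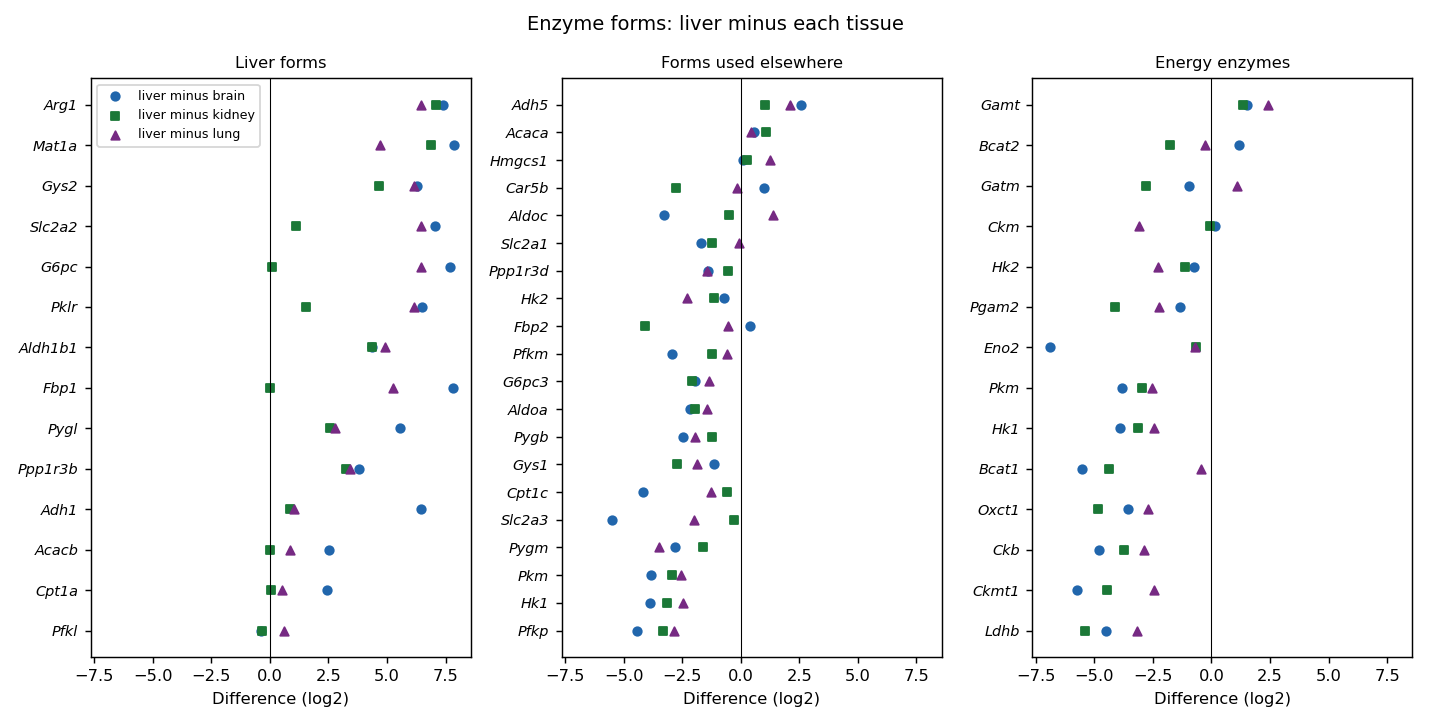
Liver minus brain, liver minus kidney and liver minus lung (log2 units) for the liver forms of shared enzymes, the forms used elsewhere and the energy enzymes known to be scarce in hepatocytes. G6pc and Slc2a2 stand near kidney (0.09 and 1.12) but far above brain and lung, while Pfkp, Hk1, Pkm, Ldhb and Oxct1 stand below all 3 tissues.

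Structural genes were lower in liver more often than higher, as were genes at large (17.6% called lower and 9.27% higher). Of 17 genes of continuous endothelium, 8 were called lower and 0 higher (median -0.96, and 6 lower under centring). Only 2 of the 17 were called lower against each tissue. The list's median level was 8.86 in liver, 8.44 in brain, 10.25 in kidney and 11.51 in lung. Ace, the angiotensin-converting enzyme of capillaries and the tubule brush border, had liver values of 5.84, 6.56 and 7.58 and a difference of -4.30 ± 0.02. Cd34 (-2.58), Podxl (-2), Flt1 (-1.5) and the tight junction protein Cldn5 (-1.5) followed. Of 19 genes of caveolae and the actin cytoskeleton, 13 were called lower and 0 higher (median -1.48, and 11 lower under centring). Only 1 of the 19 was called lower against each tissue. Cavin3 (-2.66), S100a6 (-2.46), Cav1 (-2.23), Cnn1 (-1.87) and Cav2 (-1.85) were among the 13. Cav1 had liver values of 7.95, 8.26 and 9.76 and means of 9.01 in brain, 10.33 in kidney and 12.47 in lung, and it was called against 2 of the 3 tissues.

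Of 23 basement membrane and matrix genes, 15 were called lower and 0 higher (median -1.18), with the laminin chains Lamb2 (-2.01), Lama4 (-1.99), Lamb1 (-1.98) and Lama5 (-1.97) and agrin (Agrn, -1.64) in front. Only 1 of the 23 was called against each tissue. Of 18 tubulins and microtubule proteins 10 were called lower (median -1.38), with Map1b (-3.69), Tubb2b (-3.35), Map2 (-3.22), Tubb4a (-3.03) and Tuba1a (-2.70), all abundant in neurons, at the low end. Of 29 genes of the primary cilium, an organelle that hepatocytes do not carry, 10 were called lower (median -0.85). Ahi1 had 4.76, 5.91 and 6.70 in liver against at least 7.05 elsewhere (-3.10 ± 0.02), and Ift57, of the transport train, 4.82, 5.83 and 6.55 against at least 7.37 (-2.95 ± 0.02). Kif3a (-1.91), Bbs2 (-1.77) and Ift22 (-1.74) followed, and 19 of the 29 were not called.

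These counts depended on scaling more than those of the hepatocyte lists. The matrix list had 10 members called lower under quantile normalization and 8 under centring, the cilium list 8 and 7, and the tubulin list 10 and 9. Of 32 genes of the Notch, Wnt and Hedgehog pathways, 15 were called lower and 2 higher (median -0.84; 11 lower under quantile normalization and 8 under centring). The Wnt receptor Fzd3 (-3.02), the Notch target Hey1 (-2.99), the Notch ligand Jag2 (-2.55), Fzd2 (-2.40) and the ligand Wnt5a (-1.83) were lower. The co-receptor Lrp5 (1.40) and the receptor Fzd8 (1.2) were higher. Junction proteins split by member. Of 19, 9 were called higher and 6 lower (median 0.63). The hepatocyte connexins Gjb1 (4.39 ± 0.04) and Gjb2 (3.23) and the claudins Cldn1 (3.34), Cldn3 (2.31) and Cldn2 (2.15) were higher. Cldn10 (-4.84), the cadherin Cdh13 (-3.25) and the connexins Gja1 (-2.21) and Gjc1 (-1.89) were lower.

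Cell types that live only in or mainly in liver were visible in the whole tissue. Of 13 Kupffer cell genes, 8 were called higher and 0 lower (median 1.35). The per-array mean of this list ran from 8.64 to 9.60 in liver, above the highest array of the other tissues (7.90, in lung). Vsig4, a complement receptor of resident macrophages, had 9.29, 10.21 and 10.86 in liver and at most 5.92 elsewhere (6.20 ± 0.04). Cd5l (5.77), the lectin Clec4f (4.56), the iron exporter Slc40a1 (2.68) and Timd4 (2.21) were also higher. Of 12 sinusoidal endothelium genes, 9 were called higher and 0 lower (median 1.81), with Clec4g (6.09), Dnase1l3 (5.84), Oit3 (4.99), the scavenger receptor Stab2 (4.32) and Fcgr2b (2.56) in front. The list's per-array mean was 9.21 to 9.63 in liver and at most 7.93 elsewhere. A further probe set of Clec4g gave 0.37.

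Of 12 stellate cell genes, 9 were called higher and 1 lower (median 1.74). Colec10 (5.10) and Colec11 (3.91), both secreted lectins, Hand2 (2.37) and Ngfr (1.93) were higher. Lrat, the enzyme that esterifies vitamin A for storage, was higher overall (2.5 ± 0.04), with 7.60, 9.85 and 10.64 in liver, but its lung mean of 10.79 was above that of liver (9.69). Pdgfrb, a receptor of pericytes, was called lower (-1.35; -0.90 and not called under centring). Bile duct genes were called lower for 6 of 10 (median -1.61), among them Krt7 (-2.75), Tspan8 (-2.12) and Cftr (-1.92), and higher for 1, Pkhd1 (1.31). The 9 red cell precursor genes had a median of -0.12, with Klf1 higher (1.51) and Ank1 (-1.84) and Sptb (-1.65) lower. The 10 B and T cell genes differed by -0.77 to -0.20 and the 8 exocrine pancreas genes by -0.18 to 0.50, all under the size threshold.

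Among the genes called higher than the mean of the others, 750 were not called over kidney, 104 not over brain and 340 not over lung. These shared genes were led, for kidney, by Mettl7b (5.07 in all and 0.97 over kidney), Aldh8a1 (5.04 and 0.57), the P450 enzyme Cyp2j5 (4.96 and 0.08), Acnat1 (4.84 and 0.93) and the methyltransferase Bhmt2 (4.83 and 0.78). Cyp2j5 had 10.91, 12.10 and 12.45 in liver and 11.47, 11.97 and 12.45 in kidney, so the tissues overlapped fully. For brain the leading genes were Necab1 (3.47 in all and -0.75 from brain), Mmd2 (3.44 and 0.10) and Plcxd2 (2.98 and 0.40). Mmd2 had 11.52, 12.10 and 12.73 in liver and 11.81, 12.04 and 12.26 in brain. For lung they were haptoglobin (Hp, 4.61 and 0.69), the Clara-cell P450 Cyp2f2 (4.27 and -0.06) and the zinc importer Slc39a4 (3.41 and 0.17). Cyp2f2 had 13.02, 13.35 and 13.50 in liver and 13.18, 13.39 and 13.56 in lung. On the low side, 1635 of the genes called lower overall were not called below kidney, 818 not below brain and 1191 not below lung. Counted against single tissues, liver had 2997 genes higher and 3594 lower than brain, 1202 higher and 2229 lower than kidney, and 2036 higher and 3378 lower than lung.

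The liver difference was called in each cross by itself for a similar number of genes, between 1751 and 1849 higher and between 3259 and 3422 lower. Which genes these were varied at the margin: 1257 of the 1745 higher genes were called in all 9 crosses and 184 in 8, and for the lower genes the counts were 2577 of 3305 and 272. An F-test of whether the liver difference varied among crosses passed for 11884 genes (63.1%), 1434 of the higher genes among them, and 7564 passed when runs of neighbouring animal numbers were taken as a block. It passed with a range over crosses of 2 units or more for 230 genes (1.22%). Variants of CAST, PWK or WSB that lie beneath the probes were not analysed here, and their part in a low value in 1 strain was not tested.

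In the 10 genes with an overall difference of 3 or more that were not called in every cross, the exception lay mostly in 1 inbred strain. Iigp1, an interferon-induced GTPase, had a liver mean of 4.79 ± 0.39 (SD) in CASTxCAST and of 10.43 to 11.31 in the other crosses, and its liver difference ran from 0.51 to 5.44. Rarres1, a retinoid-responsive membrane protein, was 4.69 ± 0.29 in CASTxCAST livers and 10.95 to 11.89 in the rest. The 4 F1 crosses with a CAST parent lay within these upper ranges for both genes.

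The PWK strain was the exception for 4 of the 10. Orm1, the acute-phase protein orosomucoid, was 5.80 ± 0.65 in PWKxPWK livers and 9.46 to 12.28 elsewhere (differences of 0.62 to 6.48). Spata22, known for its role in germ cells, was 3.83 ± 0.15 against 7.30 to 8.32, and Sdr9c7, a short-chain dehydrogenase, 4.79 ± 0.33 against 7.86 to 9.81. Orm2 was graded: 5.63 ± 0.38 in PWKxPWK, 5.89 in CASTxPWK, 6.44 in PWKxCAST, 7.76 in CASTxCAST and 9.29 to 10.4 in the 5 crosses with a WSB parent. In WSBxWSB livers, Cyp4a12b, a fatty acid hydroxylase, was 6.09 ± 1.57 against 11.21 to 12.36, and Nxpe2 5.04 ± 0.37 against 9.29 to 10.57. The remaining pair, Ces4a and Cyp2b13, was highest in the crosses with a WSB parent. Ces4a, a carboxylesterase, was 8.32 to 10.12 in the 5 crosses with WSB and 5.16 to 5.67 in the 4 without, of which PWKxPWK was still called (difference 1.24). Cyp2b13 was 4.13 ± 0.59 in CASTxCAST, the 1 cross in which it was not called, 4.87 in PWKxCAST, 5.05 in CASTxPWK, 6.19 in PWKxPWK, 8.01 to 9.18 in the F1 crosses with WSB and 10.96 ± 0.42 in WSBxWSB.

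Some genes with the widest ranges were still called higher in all 9 crosses. Hsd3b5, a steroid-metabolising enzyme, was 4.90 ± 1.41 in WSBxWSB livers (3.49 to 8.77) and 10.97 to 12.07 elsewhere, with differences from 1.52 to 8.51. Mup3, a major urinary protein, was 6.28 ± 0.62 in PWKxPWK and 10.51 to 11.95 elsewhere (2.34 to 7.79), and Cyp2c38 4.37 in PWKxPWK, 6.65 in CASTxCAST, 7.79 and 7.84 in their F1 crosses and 9.80 to 10.5 with WSB. Sult1e1, the estrogen sulfotransferase, was called in 5 crosses: it was 9.71 ± 0.29 in WSBxWSB, 7.03 to 8.35 in the F1 crosses with WSB and 3.53 to 3.80 without it. Among the genes chosen for their range, the largest adjusted p of limma's F-test was 2.23e-69 (Mup3). They were chosen by this range, so the test describes them and supports nothing further. Of the 20 leading liver genes, Sult3a1 had the widest range: its liver mean was 8.41 ± 2.04 in PWKxPWK, 9.52 in PWKxWSB, 9.81 in WSBxPWK, 10.79 in WSBxWSB and 11.38 to 11.52 in the rest, and over all livers it ran from 5.53 to 11.90 around a median of 11.28.

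**Figure D5:**
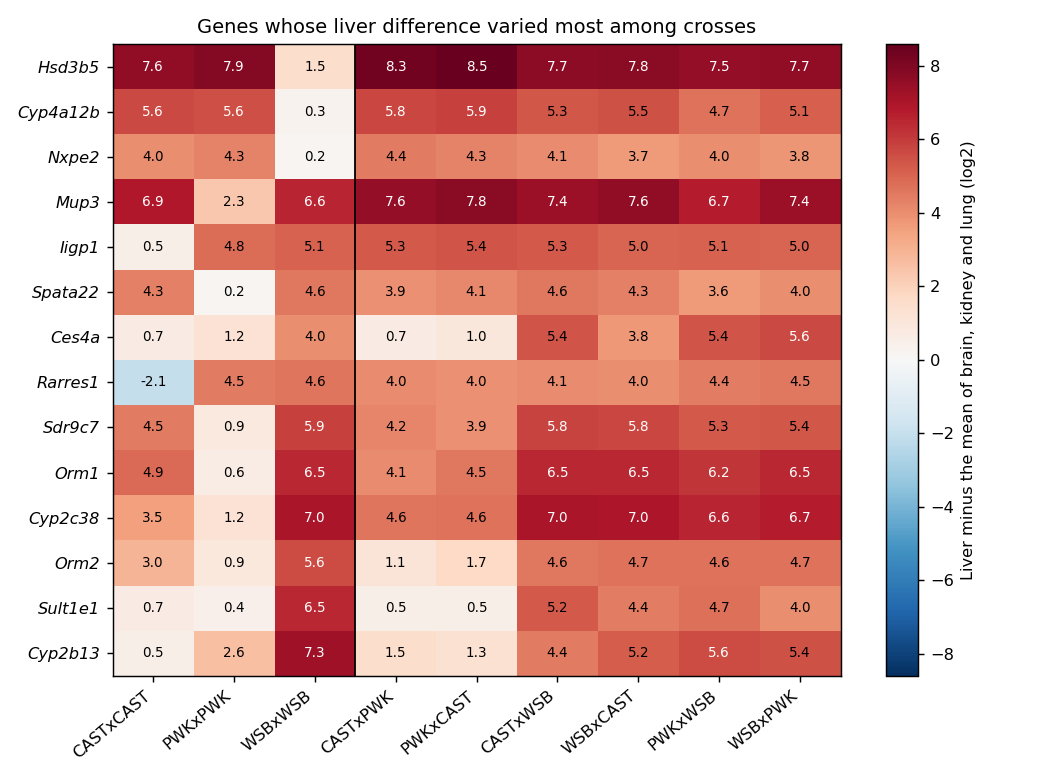
Liver difference (log2 units, colour and printed value) in each of the 9 crosses of the 10 genes higher by 3 or more overall but not called in every cross and of 4 further genes with wide ranges. The pale cells of Iigp1 (0.51) and Rarres1 (-2.07) lie in CASTxCAST, those of Orm1 (0.62) in PWKxPWK and those of Cyp4a12b (0.32) in WSBxWSB.

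For 26 genes the liver was called higher in at least 1 cross and lower in at least 1 other, and the examples were picked after their values were seen. Rarres1 was among them, with differences from -2.07 to 4.61. Susd4, a complement regulator, ran from 2.13 in CASTxCAST to -2.70 in WSBxWSB, the adhesion receptor Adgrf1 from -1.28 to 3.40, and lipocalin Lcn2, an iron-siderophore binder, from -1.08 to 3.33. The livers varied more than the other tissues in these genes: the SD over arrays was 1.71 in liver for Susd4 and 0.09 to 0.39 elsewhere, and 2.12 for Adgrf1 against 0.20 to 0.40.

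Sex moved the liver difference by 1 log2 unit or more for few genes at this age. A contrast of the liver difference between females and males had that size and an adjusted p under 0.05 for 14 genes (0.0744%). Smaller sex differences could pass the adjusted p alone, as for Susd4 (-0.419, adjusted p 2.55e-20 by limma). The share that passed the F-test among crosses (63.1%) had no size threshold, so the shares are not alike. Cyp3a16 had the largest female excess, 2.21, with 6.56, 9.85 and 10.9 as the lowest, median and highest female livers and 4.14, 7.35 and 10.82 as those of males. Cyp2b13 (1.92), Cyp2b10 (1.69) and Rsph4a (1.64) were also higher in females. Cyp2b10 was not itself called higher in liver (0.385), and its mean was 8.4 in liver and 12.55 in lung. The mean of Rsph4a was also lower in liver (7.43) than in lung (8.03). On the male side, the fatty acid elongase Elovl3 differed by -1.71, with 7.23, 9.78 and 11.56 in females and 9.26, 11.37 and 12.82 in males. Mup21 (-1.56), Cyp4a12a (-1.41) and Cyp4a12b (-1.14) followed. The sexes overlapped for all 8 genes. Cux2 (1.19), Sult3a2 (1.15), A1bg (1.06), Acot3 (1.05), Cyp2a22 (1.03) and Mir675 (1), named only to complete the count, made up the 14. Leaving out the 2 arrays whose Xist level went against the sex label ended the call of Mir675 (0.95) and moved the other values little, for example to 2.25 for Cyp3a16 and -1.74 for Elovl3. Of the 20 leading liver genes none was among the 14.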

How the data were processed

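The deposited table holds log2 signals of 35556 transcript clusters that the authors made with RMA in Affymetrix Expression Console, per the submitters' processing notes. The versions, and whether the tissues were normalised together, are not given in the sources used here. Clusters with 1 symbol (21218) were reduced to 18820 genes, keeping for each of the 1386 genes with several clusters the one of highest mean. Array medians lay between 5.89 and 6.36, and no filter on low signal was set. The number of arrays limits the precision, and each difference was tested against the spread between arrays of the same fitted group. Means of the 36 cross-by-tissue groups (72 with sex) were fitted by limma (3.58.1, under R 4.3.3) with moderated variances that follow a trend on mean signal (358 degrees of freedom) and Benjamini-Hochberg adjustment over all genes, and the procedure was tested on simulated data. Tables were made with Python 3.11.15 and pandas 2.3.3. The animal identifiers in the labels tie tissues of the same mouse, and the correlation within animals was 0.0316. Replicate numbers follow accession order and pair nothing.

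Named were the 20 highest and 15 lowest genes, those not higher in every cross, those of the widest range, those shared with a tissue, the 5 members of each list with the largest differences (with up to 4 called in the opposite direction) and the 8 most sex-dependent genes. The genes and lists were chosen with earlier results of these data known. Of the listed genes, 74 had no cluster with a single symbol.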

Additional observations from a re-analysis of the deposited data

Results flagged for a closer look

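Liver arrays of PWKxPWK and CASTxPWK, the crosses with 9 or 10 of them, were examined for each of the 276 named genes. Of these 552 groups of arrays, 36 arrays lay far from the rest of their group, where chance flags about 1 in 20 groups. Among the genes with the largest liver differences of either sign and those shared with a tissue, CASTxPWK livers held Car4 at 6.93 in replicate 3 (the rest 5.44 to 6.22), Acss1 at 4.25 in replicate 9 (4.83 to 5.39), Cldn10 at 4.6 in replicate 8 (5.36 to 6.03), Penk at 6.97 in replicate 7 (5.6 to 6.28), Chn1 at 4.5 in replicate 5 (5.06 to 5.67) and Cyp2j5 at 11.78 in replicate 4 (11.92 to 12.07). PWKxPWK livers held Plxdc2 at 5.83 (6.66 to 6.93) and Mettl7b at 12.03 (12.2 to 12.38), both in replicate 1, and Orm2 at 6.5 in replicate 2 (5.2 to 5.79).

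Among the members of the gene lists, the far values in CASTxPWK livers were 12.47 for Hrg and 13.51 for Tat (replicate 3), 11.18 for Ugt2a3 (replicate 10), 11.06 for Hjv, 12.2 for Cpt1a, 8.06 for Lamb1 and 10.13 for Colec11 (replicate 6), 13.44 for Cyp2e1 and 5.44 for Cd22 (replicate 8), 9.45 for Igf2bp3 (replicate 5), 4.34 for Fbp2 (replicate 7), 8.25 for Cd34 and 5.11 for Cpb1 (replicate 9), 4.91 for Fzd2, 6.5 for Klf1, 5.17 for Ucp1 and 4.79 for Adipoq (replicate 4), and 5.59 for Kap (replicate 2). In PWKxPWK livers they were 12.86 for Hrg and 5.59 for Epb42 (replicate 3), 6.49 for Hk2 (replicate 2), 7.46 for Aldoc, 5.2 for Tubb4a and 7.02 for Hand2 (replicate 7), 8.69 for Tfrc (replicate 1), and 6.77 for Slc5a12 and 6.65 for Kap (replicate 9). Slc5a12 and Kap, both genes of the kidney's proximal tubule, reached at most 5.4 and 5.06 on the other PWKxPWK liver arrays.

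The liver difference varied among crosses, by limma's F-test and with a range of at least 2 units, for 23 of the named genes. The range, in log2 units, was 7 for Hsd3b5, 6.79 for Cyp2b13, 6.69 for Rarres1, 6.06 for Sult1e1, 5.86 for Orm1, 5.77 for Cyp2c38, 5.57 for Cyp4a12b, 5.45 for Mup3, 5.02 for Sdr9c7, 4.93 for Iigp1, 4.91 for Ces4a, 4.67 for Orm2, 4.55 for Cyp4a12a, 4.37 for Spata22, 4.3 for Nxpe2, 4.09 for Cyp3a16, 3.98 for Cyp2b10, 3.84 for Hamp2, 2.96 for Sult3a1, 2.59 for Rsph4a, 2.56 for Mup21, 2.5 for Elovl3 and 2.22 for Onecut1. Sult3a1 is the only 1 of these among the 20 genes with the largest liver differences. The liver was called on opposite sides in different crosses for 26 genes.

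Females and males differed in the liver difference, by limma's contrast of the sexes, for Cyp3a16 (2.21, females minus males), Cyp2b13 (1.92), Cyp2b10 (1.69), Rsph4a (1.64), Cyp4a12b (-1.14), Cyp4a12a (-1.41), Mup21 (-1.56) and Elovl3 (-1.71). All 8 are also among the 23 genes that varied widely over crosses.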

How the results depend on the processing

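Of 276 named genes, 261 kept their side of the threshold under each of the 20 alternatives run for them. Under at least 1 alternative, 8 lost the call and 7 gained it. Of the called genes, 0 changed direction. A change of sign between values that were not called was not counted. Centring each array on its median gave 3260 genes higher and 2126 lower, 2208 and 1566 in every cross, and 1292 and 411 against each tissue. Leaving out genes under the 40th percentile of liver signal gave 1655 lower and 1208 lower in every cross, with fewer genes tested (11292). Blocking on runs of adjacent animal numbers (25 runs, correlation 0.166) left 7564 genes that varied among crosses; the cause was not tested. With the animal as a block, 1745 genes were higher, 3306 lower, and 12102 varied among crosses, and the block moved no count by over 1.5 times. An alternative added after the data were seen, a filter at the 40th percentile of the mean over all arrays, left 7 sex-dependent genes. Without the 16 arrays that stood apart, also added later, the counts were 1749 higher, 3309 lower and 16 sex-dependent. Testing against 1 log2 unit left 4800 genes, and quantile normalization gave 2012 higher and 2884 lower. Cdkn1c and Ppp1r3d were not called under quantile normalization or centring, nor Cdkn1c in the inbred strains alone, and Adipoq not under centring. The liver difference of Rsph4a was 0.245 in males alone and not called. Females only, males only, the 72 means, no term for cross and the test against 1 log2 unit were not run for the sex contrast. Low signals near the array's floor limit what a lower value can show.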

Other observations

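Some genes known from other organs' cells stood out in liver, values chosen after they were seen. Syt1, the calcium sensor of synaptic vesicles, was the 1 of 7 neuron genes called higher in liver (1.33, in 8 of the 9 crosses), with 7.67, 9.69 and 10.54 as the lowest, median and highest liver values and means of 12.92 in brain, 5.70 in kidney and 6.35 in lung. The 6 other neuron genes were called lower, down to Stmn2 (-3.98). Fabp2, the intestinal fatty acid-binding protein, was the 1 of 9 gall bladder and gut genes called higher (4.97), with 7.08, 8.58 and 9.60 in liver and no other array above 4.68. In that list Muc1 (-2.83) and Vil1 (-1.79) were called lower. Fabp2 was called higher in all 9 crosses.

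Markers of the other organs' own cells gave the opposite picture. Of 10 proximal tubule genes 9 were called lower in liver (median -2.36), and of 10 alveolar epithelium genes 9 (median -2.31), but 0 in either list against each tissue, since these markers are high in 1 tissue. Of 12 skeletal muscle and fat genes 5 were called lower (median -0.67), among them the brown fat genes Ucp1 (-2.53) and Cidea (-2.50). Muscle and fat markers stood high on 1 kidney array and 8 lung arrays (9.59, and 8.49 to 9.05). Without all the arrays that stood apart, these among them, 5 genes of the list were likewise called lower. The part of these arrays in the size of the differences was not tested.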
